A study of Homo sapiens with 18 samples.

Results

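H3K4me1 sites were compared between H2087-LCC-SO1 cells (here SO1) and H2087-LCC cells treated with TGF-β1 (here TGFb), with 1 library of each. The sites are peak summits on chromosomes 1 to 22 and X, all of which were taken: 128082 in SO1 and 143813 in TGFb, or 271895 of the 946841 summits in the 13 peak lists of the series. H3K4me1, the mono-methylated form of lysine 4 on histone H3, is laid down at enhancers and on the flanks of promoters, in mammals chiefly by the methyltransferases KMT2C and KMT2D. An enhancer that carries it without H3K27ac is usually called primed, and one with both marks active, while H3K4me3 stands at promoters. H3K4me1 often precedes acetylation and can persist after acetylation is lost, so its map holds sites in use and sites held ready.

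H2087-LCC (here LCC) is a derivative of the human lung adenocarcinoma line H2087, used in a study of dormant metastasis. SO1 is labelled as a further H2087-LCC line and stands for that line alone, and the labels give no further origin for it. TGFb cells are LCC that received TGF-β1 over 4 days, at 100 nM by the label. TGF-β1 is a cytokine that acts through SMAD factors and, in many epithelial cells, slows division and drives a shift towards a mesenchymal state. SO1 received no TGF-β1, and both were grown in the same supplemented medium with epidermal growth factor. The SO1 and TGFb libraries therefore differ in line and in treatment, and which of these a difference follows cannot be told apart from this pair. Values of untreated LCC, and of H2030, a separate lung adenocarcinoma line in a simpler medium, are given beside them. H3K4me1 was not replicated in any condition, so no test was run and the intervals below (Wilson, 95%) cover counting error only.

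The authors' score of a summit, which appears to be on a −log10 scale of significance, served to rank summits inside their own list. Read depth is unknown. The SO1 list was 89.1% as long as the TGFb list, but its median score was higher, 15.8 in SO1 and 11.1 in TGFb (LCC 11.6). Summits were also spaced more widely, with a median gap of 6365 bp in SO1 and 5471 bp in TGFb. How far depth moves with these differences was not tested. No annotation of the files' build, hg19, was used here, so positions are given without gene names, and the cell type was not checked against marker genes.

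The mark's known placement was visible in both libraries and hardly differed between them. Strong H3K4me3 summits found in both conditions (at or above the list's median and within 500 bp of a summit of the other) numbered 13640 in SO1 and 13683 in TGFb. The nearest H3K4me1 summit stood a median of 742 bp away in SO1 and 760 bp in TGFb. Within 250 bp of the H3K4me3 summit there were 6.87 H3K4me1 summits per 100 H3K4me3 summits in SO1 and 6.86 in TGFb. At 500 to 750 bp there were 39.0 in SO1 and 37.4 in TGFb, and from 4750 to 5000 bp 5.62 in SO1 and 6.04 in TGFb. H3K4me1 summits thus stood more often beside these H3K4me3 summits than on them. Peak widths were not used, so how far the mark covered promoters cannot be read. No H3K4me1 summit lay within 2500 bp at 1.91% of these H3K4me3 summits in SO1 and 2.92% in TGFb.

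**Figure D1:**
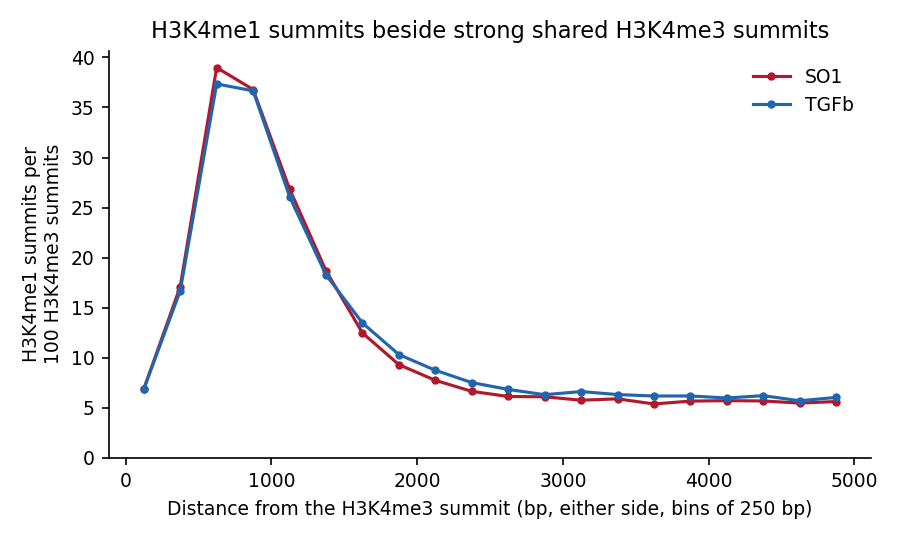
H3K4me1 summits per 100 strong H3K4me3 summits present in both conditions, by distance on either side in bins of 250 bp, for SO1 and TGFb. Both lines peak between 500 and 750 bp, at 39.0 in SO1 and 37.4 in TGFb, and dip to 6.87 in SO1 and 6.86 in TGFb next to the H3K4me3 summit.

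Most H3K4me1 summits lay away from the other marks. Neither H3K4me3 nor H3K27ac of the same condition stood within 1 kb of 56.9% of SO1 and 55.8% of TGFb H3K4me1 summits, the primed arrangement. H3K27ac without H3K4me3, here called active distal, accompanied 23.2% in SO1 and 26.6% in TGFb, and H3K4me3 19.9% in SO1 and 17.6% in TGFb. These names rest on summits within 1 kb alone, and promoter flanks reach further. At 1000 to 1250 bp there were 26.9 H3K4me1 summits per 100 strong shared H3K4me3 summits in SO1 and 26.1 in TGFb. The active distal and primed groups can therefore hold promoter flanks, here and below. Scores were highest at active distal sites, with a median of 40.5 in SO1 and 22.4 in TGFb, and lowest at primed sites, with 8.16 in SO1 and 7.04 in TGFb.

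Somewhat more than every second H3K4me1 summit of one condition was found in the other. A TGFb summit stood no more than 500 bp from 61.8% (61.5 to 62.1) of SO1 summits, and an SO1 summit from 55.3% (55.0 to 55.5) of TGFb summits. With the other list moved by 2 Mb the shares were 5.52% of SO1 and 5.02% of TGFb summits. With both lists cut to the 128082 highest scores, they came to 58.4% of SO1 and 58.4% of TGFb summits. Matches are nearly mutual, with 79139 SO1 and 79501 TGFb summits matched in the full lists. The directions therefore differ through list length, and equal lengths fix near-equal shares in advance. TGFb and LCC, measured in the same way, shared 61.6% of TGFb and 62.1% of LCC summits. SO1 and LCC shared 59.6% of SO1 and 53.7% of LCC summits, and SO1 and H2030 38.6% of SO1 and 37.3% of H2030 summits. Shared summits were offset by a median of 117 bp, and 208 SO1 summits (0.162%) lay at the identical base in TGFb.

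The shares grew with the score over most of the range and then turned. Each list was divided by score into 10 groups of equal size, and in the lowest group 31.7% of SO1 summits were found in TGFb and 29.3% of TGFb summits in SO1. The shares were highest in group 8, at 80.4% for SO1 and 72.9% for TGFb, and stood at 70.5% for SO1 and 66.6% for TGFb in group 10. Summits of group 10 nevertheless mostly had a neighbour further out: only 0.125% of SO1 and 1.05% of TGFb summits in it had none within 10 kb.

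Over the whole lists, promoter-flanking H3K4me1 was shared most often and primed H3K4me1 least often, but the order of primed and active distal sites depended on the score. Summits with H3K4me3 of their own condition within 1 kb were found in the other condition at 76.3% (75.8 to 76.8) for SO1 and 76.7% (76.1 to 77.2) for TGFb. At active distal sites the shares were 70.9% for SO1 and 63.5% for TGFb, and at primed sites 52.99% for SO1 and 44.6% for TGFb. Primed summits score low, and in the highest of 4 equal score groups the primed share was 76.3% in SO1 and 68.6% in TGFb, next to 76.1% in SO1 and 73.0% in TGFb for promoter flanks. The gap between promoter flanks and primed sites was wider among weak summits in both lists, with 47.5% of promoter flanks and 34.5% of primed sites shared in the lowest of the 4 groups of SO1, and 64.5% and 28.9% in that of TGFb. Active distal SO1 summits were shared at 32.4%, 60.8%, 74.1% and 73.3% from the lowest to the highest of the 4 groups, and primed SO1 summits at 34.5%, 55.5%, 76.5% and 76.3%. SO1 active distal sites were thus shared less often than primed ones in the third and highest groups, and more often in the second. In the lowest group the intervals overlapped, at 29.5 to 35.4% for active distal and 34.0 to 35.1% for primed sites. In TGFb the active distal shares were 37.3%, 55.3%, 66.2% and 68.8%, and the primed shares 28.9%, 43.5%, 63.3% and 68.6%. Primed sites were also the most often without any neighbour: 9.55% of them in SO1 and 13.9% in TGFb had no summit of the other condition within 10 kb, while promoter flanks had 3.31% in SO1 and 2.21% in TGFb.

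**Figure D2:**
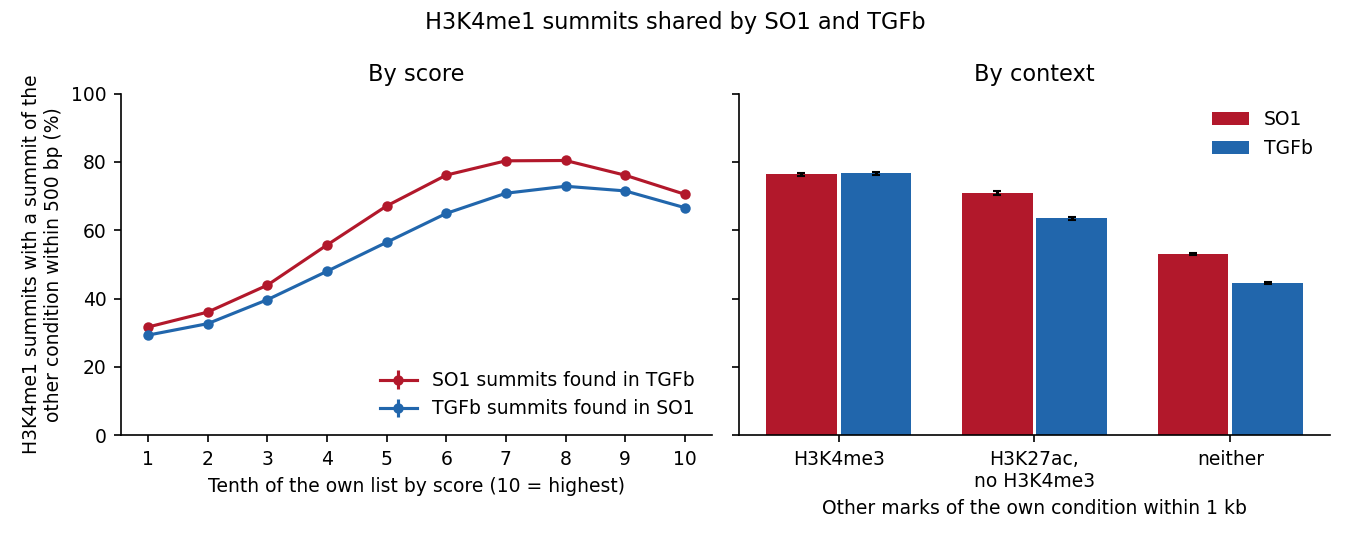
Percent of H3K4me1 summits with a summit of the other condition within 500 bp, by 10 equal groups of the own list's scores (left) and by the other marks of the own condition within 1 kb (right), for SO1 and TGFb, with Wilson 95% intervals. Shares reach 80.4% in SO1 and 72.9% in TGFb in group 8, and among the contexts are lowest, at 52.99% in SO1 and 44.6% in TGFb, where neither other mark lies nearby.

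The first places of each list show matches and offsets in position. The highest SO1 summit, chr12:53301433 with a score of 258, lay 36 bp from TGFb's seventh, which scored 182, and LCC scored 167 there. TGFb's first, chr8:126525881 with 201, stood 75 bp from an SO1 summit of 174, and LCC scored 162. By contrast, the second places fell in the same neighbourhood of chromosome 8 but at different bases: SO1 scored 240 at chr8:128921233 and TGFb 195 at chr8:128903072, which are 18161 bp apart (the nearest TGFb summit to the SO1 one lay at 5482 bp). SO1 also scored 221 at chr8:128844719 and 213 at chr8:128982829, where TGFb scored 151.06 at 7 bp and 151.03 at 23 bp. This stretch was strong in both conditions, and it recurs below among the sites of TGFb alone.

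Sites of one condition alone were looked for by merging the summits of both lists within 1000 bp into 162435 elements, of which 87922 (54.1%) held summits of both. An element was called SO1-only when its SO1 score reached the SO1 median and no TGFb H3K4me1 summit lay within 10 kb, and TGFb-only by the mirror rule. SO1-only elements numbered 1013 of 63076 strong SO1 elements, 1.61%, and TGFb-only elements 2818 of 70147 strong TGFb elements, 4.02%. The same rule between TGFb and LCC called 1.28% of TGFb and 0.802% of LCC elements. Between SO1 and LCC it called 2.57% of SO1 and 4.33% of LCC elements. SO1 thus lacked a larger share of TGFb sites than TGFb did of SO1 sites, at unlike median cut-offs of 15.8 in SO1 and 11.1 in TGFb. The pair of SO1 and LCC ran the same way, but it reuses the same SO1 library and adds no independent evidence. TGFb-only elements were 2.78 times as many as SO1-only ones. This ratio ranged from 1.20, with only scores of at least 10 kept in both lists (1285 SO1-only and 1541 TGFb-only), to 4.05 with no summit allowed within 50 kb (256 SO1-only and 1037 TGFb-only). At equal list lengths it was 1.59, with 1339 SO1-only and 2135 TGFb-only elements.

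The clearest contrast was in what untreated LCC carried at these sites. An LCC H3K4me1 summit stood within 1 kb of 26.1% (23.5 to 28.9) of SO1-only and 77.7% (76.1 to 79.2) of TGFb-only elements. Elements strong in both had it at 94.7%, and those among them without another element within 10 kb at 95.7%. No LCC H3K4me1 summit lay within 10 kb of 64.5% of SO1-only and 12.3% of TGFb-only elements. Most H3K4me1 sites seen in TGFb and not in SO1 were thus also listed in untreated LCC, while most SO1-only sites were not. H2030 H3K4me1 did not share this contrast: it lay at 233 of the 1013 SO1-only elements (20.5 to 25.7%) and 616 of the 2818 TGFb-only elements (20.4 to 23.4%), and at 66.4% of those strong in both. Sites carried by neither LCC nor H2030 made up 58.4% of SO1-only and 17.5% of TGFb-only elements. With the LCC H3K4me1 list moved by 2 Mb, its shares were 9.97% of SO1-only and 12.2% of TGFb-only elements. The LCC contrast was not independent of the choice of elements. TGFb cells are treated LCC, and only 0.802% of strong LCC elements had no TGFb summit within 10 kb. Choosing by presence or absence in TGFb therefore favours the same state in LCC, also at the isolated elements, blocks and runs below.

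Acetylation of the own condition accompanied both groups, less often than at the common sites. SO1 H3K27ac lay within 1 kb of 47.7% (44.6 to 50.8) of SO1-only elements, and TGFb H3K27ac of 38.7% (36.9 to 40.5) of TGFb-only elements. Elements strong in both had SO1 H3K27ac at 66.4% and TGFb H3K27ac at 69.1%. Their H3K4me1 was also stronger, with a median SO1 score of 41.3, beside 21.4 in SO1-only elements. The median TGFb score was 27.3 in elements strong in both and 16.2 in TGFb-only ones. Neither these shares nor those of the other marks were matched for score. The condition that lacked H3K4me1 mostly lacked H3K27ac too. TGFb H3K27ac lay at 7.01% of SO1-only and SO1 H3K27ac at 1.21% of TGFb-only elements. Lists moved by 2 Mb gave 4.15% of SO1-only and 4.76% of TGFb-only elements. Both marks often lie together, and the elements were chosen by the absence of one of them. The low H3K27ac shares are therefore not independent of that choice, nor are the H3K27ac counts in the blocks and runs below. H3K27ac of LCC was found at 2.67% (replicate 1) and 6.02% (replicate 2) of SO1-only elements, and at 620 (20.5 to 23.6%) and 694 (23.1 to 26.3%) of the 2818 TGFb-only elements. TGFb-only elements with LCC H3K4me1 carried TGFb H3K27ac at 39.9% (37.8 to 41.9), and those without it at 34.6% (30.9 to 38.4). For SO1-only elements the SO1 H3K27ac shares were 43.6% (37.7 to 49.6) with LCC H3K4me1 and 49.1% (45.6 to 52.7) without.

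Both groups stood far from promoters. H3K4me3 of the own condition lay within 1 kb of 10.3% (8.55 to 12.3) of SO1-only and 4.97% (4.23 to 5.83) of TGFb-only elements, against about 31% of elements strong in both (31.3% with SO1 H3K4me3 and 31.1% with TGFb H3K4me3). Common elements without another one within 10 kb had SO1 H3K4me3 at 23.3% and TGFb H3K4me3 at 22.7%. The median distance to the nearest H3K4me3 summit of the own condition was 37704 bp for SO1-only and 54735 bp for TGFb-only elements. For elements strong in both it was 3513 bp to SO1 and 3762 bp to TGFb H3K4me3. The 10 kb condition selects sparse regions, and among common elements without another one within 10 kb the distances were 28778 bp to SO1 and 29313 bp to TGFb H3K4me3. Another element of the same kind lay within 100 kb of 58.5% (56.7 to 60.3) of the 2818 TGFb-only elements. For the 1013 SO1-only elements the share was 28.1% (25.5 to 31.0). A larger group has more such neighbours by number alone, and the shares were not matched for number, so no difference in clustering can be read from them.

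**Figure D3:**
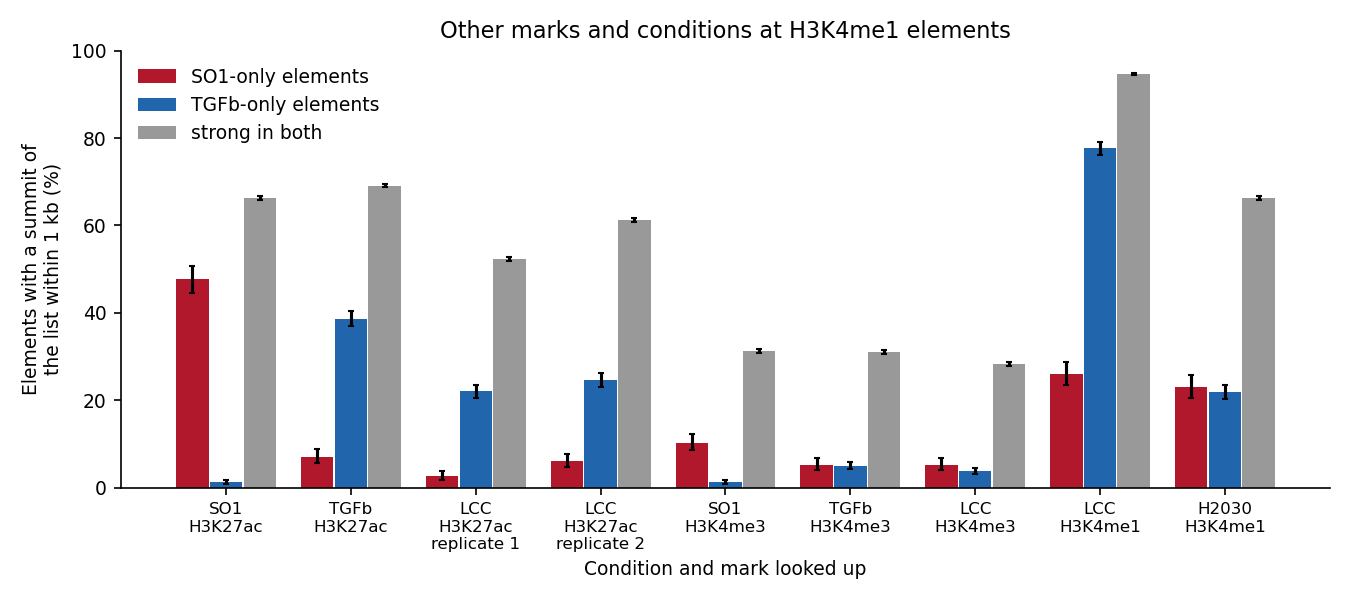
Percent of SO1-only (1013), TGFb-only (2818) and commonly strong (46767) H3K4me1 elements with a summit of each listed condition and mark within 1 kb, with Wilson 95% intervals. LCC H3K4me1 marks 26.1% of SO1-only and 77.7% of TGFb-only elements, while H2030 H3K4me1 marks 233 SO1-only and 616 TGFb-only elements.

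Near the 10 kb limit, an element of one condition can border a strong site of the other. A TGFb summit at or above its list's median lay within 25 kb of 32.6% of SO1-only elements, and an SO1 summit of that kind within 25 kb of 27.9% of TGFb-only elements. Of the 10 highest-scoring elements of each group, 7 SO1-only and 6 TGFb-only ones had a summit of the other condition between 10 and 25 kb away. The highest SO1-only element, chr22:30019178, scored 136, and a TGFb H3K4me1 summit of 61.5 lay 10208 bp off. LCC had no H3K4me1 within 1 kb but H3K27ac of 140 and 248 in its replicates. A second SO1-only element close by, chr22:30016867 with 106, carried SO1 H3K27ac of 545 and LCC H3K4me1 of 77.4. At chr12:66273120 (124) SO1 H3K27ac scored 22.4, and the nearest TGFb H3K4me1 summit, 13387 bp away, scored 91.9. At chr5:153590868 (124) SO1 H3K27ac scored 232, and at chr10:35035489 (123) both conditions had H3K27ac, of 19.7 in SO1 and 20.1 in TGFb.

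The strongest TGFb-only elements were of the bordering kind. Neighbours on chromosome 8 led the group: chr8:128903072 with 195, chr8:128867579 with 182 and chr8:128938068 with 173. SO1 H3K4me1 stood 18161 bp, 14655 bp and 13484 bp away, and the SO1 summit between the first and the last scored 240. SO1 also had H3K27ac of 289 and H3K4me3 of 234 within 1 kb of the first, and TGFb had H3K27ac of 171 and H3K4me3 of 59.0. The fourth, chr16:89392139 with 131, had an SO1 H3K4me1 summit of 176 at 10116 bp. SO1 had both H3K27ac and H3K4me3 within 1 kb of the first and the third, H3K4me3 alone (88.7) at the second, and neither at the element on chromosome 16.

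Isolation within 50 kb, a distance chosen after the values were seen, left 256 SO1-only and 1037 TGFb-only elements. LCC H3K4me1 lay at 13.3% (9.66 to 17.99) of these SO1-only and 77.8% (75.2 to 80.2) of these TGFb-only elements. Own H3K27ac lay at 56.3% (50.1 to 62.2) in SO1 and 49.5% (46.4 to 52.5) in TGFb.

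Among the isolated SO1-only elements, chr7:70175894 scored highest, with 75.6. The nearest H3K4me1 summit of TGFb lay 513164 bp away and that of LCC 513331 bp away, and no other mark of any condition stood within 1 kb, the nearest SO1 H3K27ac being at 1260 bp. At chr4:70363348 SO1 scored 73.4 for H3K4me1 and 145 for H3K27ac, with TGFb H3K4me1 250467 bp and LCC H3K4me1 264837 bp away. At chr4:149435769 (69.8) SO1 H3K27ac scored 55.1, and H2030 had H3K4me1 of 5.03. At chr3:147017082 (60.0) SO1 H3K27ac scored 82.6, and LCC H3K4me1 was present at 4.52. Of the first 10 of this kind, 7 carried SO1 H3K27ac, 2 LCC H3K4me1 and 4 H2030 H3K4me1. One of them, chr4:93891583 with 47.8, had no SO1 H3K27ac within 426187 bp, while H2030 scored 51.2 for H3K4me1 and 65.3 for H3K27ac there.

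The isolated TGFb-only elements were led by chr3:139942152, with a TGFb H3K4me1 score of 91.2 and H3K27ac of 201. LCC scored 54.4 for H3K4me1 and 15.5 and 35.7 for H3K27ac, and the nearest SO1 H3K4me1 summit lay 171157 bp away. A neighbour at chr3:139961365 scored 75.1, with TGFb H3K27ac of 171 and LCC H3K27ac of 10.1 and 9.84. At chr17:71793720 TGFb scored 85.9 and LCC 74.8 for H3K4me1, and the nearest SO1 summit was 245116 bp off. At chr8:57594294 the H3K4me1 scores were 79.7 in TGFb and 82.4 in LCC, with TGFb H3K27ac of 117. At chr12:97969376 they were 76.3 in TGFb and 63.1 in LCC, with SO1 H3K4me1 536447 bp away. On chromosome 1, 3 of the first 10 lay between chr1:181683410 and chr1:181747595. All 10 carried LCC H3K4me1 and TGFb H3K27ac, and none had SO1 H3K27ac or H3K4me3 within 1 kb.

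At the limits of the rule, the lowest SO1-only score, 15.79 at chr20:13596429, equalled the list median, and the highest just outside it was 15.76 at chr2:185201774. For TGFb-only elements the lowest was 11.054 at chr17:68401555-68402246, and 11.050 at chr3:179600200 fell outside. By distance, chr2:174001417 was TGFb-only with SO1 10007 bp away, and chr3:123397698 was not with SO1 at 9991 bp. Likewise chr5:153590868 was SO1-only with TGFb at 10035 bp, and chr8:136538270 was not at 9979 bp.

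Chromosomes differed in the balance. TGFb-only shares exceeded SO1-only shares on 21 of 23 chromosomes, the exceptions being 4 and 19. On chromosome 4, 4.13% of strong SO1 elements were SO1-only and 3.33% of strong TGFb elements TGFb-only, and on chromosome 19 the shares were 2.03% SO1-only and 0.864% TGFb-only. Chromosome 19 was also the one on which SO1 had more H3K4me1 summits, 4149 in SO1 and 3864 in TGFb (LCC 3925). Chromosome 15 lay at the other end, with 4148 SO1 and 5289 TGFb summits (LCC 5132), and 0.499% of strong elements SO1-only against 5.47% TGFb-only. Chromosome 16 was similar, with 0.378% SO1-only against 4.55% TGFb-only, and so was chromosome 20, with 0.710% SO1-only against 4.35% TGFb-only. The highest TGFb-only shares were on chromosomes 18 (5.90%) and 8 (5.72%).

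**Figure D4:**
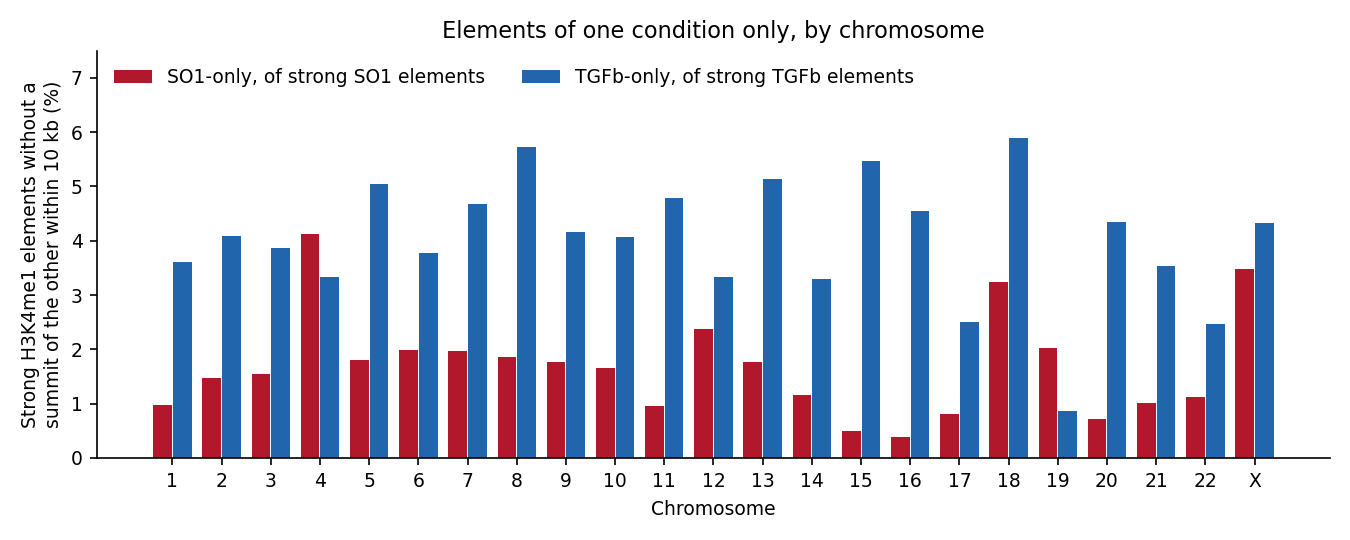
Percent of strong H3K4me1 elements without a summit of the other condition within 10 kb, for SO1 and TGFb on each chromosome. TGFb-only shares are the higher ones except on chromosome 4 (4.13% SO1-only, 3.33% TGFb-only) and chromosome 19 (2.03% SO1-only, 0.864% TGFb-only).

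Some stretches were rich in H3K4me1 summits in one condition and held few or none in the other. Of 3297 blocks of 500 kb with at least 15 SO1 summits, 7 (0.212%) held at most 10% of that number in TGFb, and of 3480 such TGFb blocks 30 (0.862%) held at most 10% in SO1. LCC and TGFb gave 0 such blocks in either direction. The 7 SO1-rich blocks held 144 SO1, 8 TGFb and 18 LCC H3K4me1 summits in all. The clearest was chr7:70000001-70500000 with 25 SO1 and 0 TGFb summits (LCC 0), beside 9 SO1 and 0 TGFb H3K27ac summits. Next came chr2:155000001-155500000 with 25 in SO1 and 2 in TGFb, chr13:97000001-97500000 with 21 in SO1 and 2 in TGFb, chr4:91000001-91500000 with 19 in SO1 and 1 in TGFb, and chr6:169500001-170000000 with 20 in SO1 and 2 in TGFb. In each of the 7 blocks SO1 H3K27ac was present, with 4 to 11 summits, against 0 to 2 in TGFb.

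The 30 TGFb-rich blocks held 30 SO1, 714 TGFb and 581 LCC H3K4me1 summits, and 22 of them held at least 15 LCC summits. Among these 30, the difference was largest, and equal, in a pair of blocks. At chr11:15500001-16000000 there were 2 SO1 and 36 TGFb summits (LCC 18), with 1 SO1 and 16 TGFb H3K27ac summits. At chr17:13000001-13500000 there were also 2 SO1 and 36 TGFb summits (LCC 20), and at chr1:181500001-182000000 2 SO1 and 33 TGFb summits (LCC 30). At chr8:13000001-13500000 there were 0 SO1 and 30 TGFb summits (LCC 32), and at chr10:54000001-54500000 0 SO1 and 28 TGFb summits (LCC 22). In 5 of the 30 blocks SO1 had no summit of any of the 3 marks, which did not occur for TGFb in the 7 SO1-rich blocks. Lost marks and lost DNA cannot be told apart there, since the input libraries were not analysed here. The same limit, for lost or gained DNA, holds for the other blocks and for the isolated elements, chromosomes, runs and 5 Mb windows. H2030 had more H3K4me1 summits than TGFb in 8 of the 30 blocks, with 63 at chr8:13000001-13500000. Chromosome 8 held 5 of the 30.

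**Figure D5:**
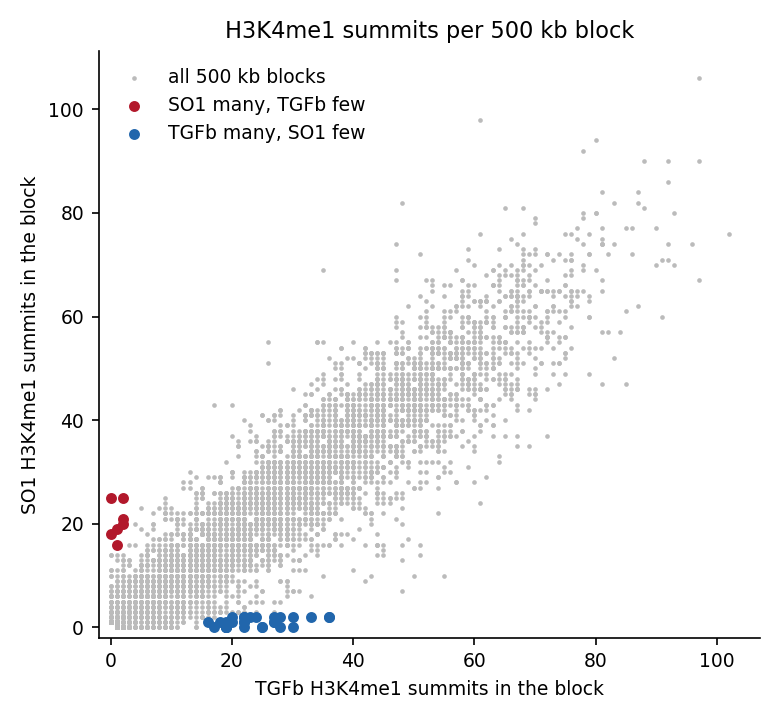
H3K4me1 summits per 500 kb block, TGFb on the horizontal and SO1 on the vertical axis, for all 5099 blocks with a summit of either. The 7 SO1-rich blocks lie at 16 to 25 SO1 and 0 to 2 TGFb summits, and the 30 TGFb-rich blocks at 0 to 2 SO1 and 16 to 36 TGFb summits.

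Unbroken runs, in which summits of one list follow each other with none of the other between, gave the limits of such stretches without fixed blocks. Runs of at least 10 summits numbered 74 in SO1 and 235 in TGFb and held 0.777% of SO1 and 2.58% of TGFb summits. With only scores of at least 10 kept, the numbers were 48 in SO1 and 63 in TGFb. The longest SO1 run had 34 summits over 1615 kb, chr5:50259471-51874893, with 9 SO1 and 0 TGFb H3K27ac summits. It was followed by 31 summits at chrX:104809735-105713220, 28 at chr7:84662792-85617674, 26 at chr7:70036883-71098232 and 25 at chr6:169251816-169971762. LCC held 8, 0, 1, 0 and 4 H3K4me1 summits in these 5 stretches, and H2030 held 21 in the last. The longest TGFb run had 46 summits over 500.1 kb, chr13:26149043-26649111, where LCC had 47, SO1 had no H3K27ac and TGFb had 20 H3K27ac summits. It was followed by 45 summits each at chr8:12694940-15362543 and chr15:35959635-36870847, 42 at chr7:41749660-42276168 and 38 at chr10:53460267-54357341. LCC held 44, 35, 44 and 29 in these. Neither runs nor blocks required strong summits. Median scores within the 5 longest runs were 5.91 to 12.2 in SO1, below the list median of 15.8. In TGFb they were 6.52 to 7.98, below the list median of 11.1. With read depth unknown, weak summits missing from the other list cannot be taken as sites absent there. Over the 10 longest runs of each list, LCC had 24 H3K4me1 summits where SO1 had 240, and 327 where TGFb had 386.

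Where both conditions kept strong H3K4me1, acetylation could still differ. Of the 46767 elements strong in both, 57.6% had H3K27ac of both conditions within 1 kb. SO1 H3K27ac without any TGFb H3K27ac within 10 kb was found at 1259 (2.69%), and TGFb H3K27ac without any SO1 H3K27ac within 10 kb at 2083 (4.45%). A further 2216 (4.74%) had no H3K27ac of either condition within 10 kb.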

How the data were processed

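Per the submitters' processing notes, Bowtie2, SAMtools and deepTools were used with the hg19 build. Which program called the peaks, and with what control, is not stated in the sources used here. The deposited lists hold single-base summits, 1 library to a list. Their scores, as deposited by the authors, appear to be −log10 p-values or q-values: the lowest over 13 lists is 1.30107, just above 1.30103, the −log10 of a conventional significance threshold. Peak widths and read counts were not used here.

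Summits outside chromosomes 1 to 22 and X were left out (64 in SO1 H3K4me1 and 30 in TGFb H3K4me1). Distances, merging, blocks and runs were computed in Python 3.11.15 with NumPy 2.4.6, and Wilson intervals in SciPy 1.17.1. Groups follow the sample titles. The rules were run on a simulated list with planted elements that clearly met them. That checked the code and gives no error rate for the data, and calls beyond the planted elements were not examined.

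The H3K4me1 sites and rules were chosen with earlier results of these data known. Named were the 10 highest-scoring elements of each group, of which the text gives some, the 5 longest runs and 5 of the called blocks with the largest difference in each direction, and the elements at the limits of the rule. The isolation distance of 50 kb, the elements named with it and the 5 Mb windows were added after the values were seen. Settings were varied in matching distance, isolation, strength, list length, score minimum, window and block. The planned motif counts, gene lists and marker genes needed an hg19 genome or annotation and were not run.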

Additional observations from a re-analysis of the deposited data

How the results depend on the processing

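TGFb-only elements outnumbered SO1-only ones under all settings run, and LCC H3K4me1 lay at a larger share of TGFb-only than of SO1-only elements. Values that left the interval of the reported share, or moved a count by over 1.5 times, were these, with both conditions given where either moved. The 50 kb distance and the common SO1 median were chosen after seeing the data. Sharing at 250 bp was 47.9% for SO1 and 42.7% for TGFb, and at 1000 bp 73.4% for SO1 and 67.0% for TGFb. With scores of at least 10 it was 58.0% for SO1 and 60.4% for TGFb (the order of the directions turned). At equal list lengths it was 58.39% for SO1 and 58.45% for TGFb. Matches are nearly mutual, so the order of the directions follows the list lengths. There were 1621 SO1-only and 4308 TGFb-only elements with none within 5 kb, 490 SO1-only and 1593 TGFb-only within 25 kb, 256 SO1-only and 1037 TGFb-only within 50 kb, and 8155 SO1-only and 12341 TGFb-only without the strength condition. With scores of at least 10 there were 1285 SO1-only and 1541 TGFb-only elements, and with the SO1 median applied to both lists 1013 SO1-only and 1495 TGFb-only.

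Own H3K27ac was found at 39.5% (SO1-only) and 30.8% (TGFb-only) within 500 bp, 49.8% (SO1-only) and 42.2% (TGFb-only) within 2500 bp, 53.3% (SO1-only) and 45.0% (TGFb-only) with none within 25 kb, 56.3% (SO1-only) and 49.5% (TGFb-only) with none within 50 kb, and 47.8% (SO1-only) and 44.8% (TGFb-only) at equal lengths. Own H3K4me3 was 7.60% (SO1-only) and 3.80% (TGFb-only) within 500 bp, 12.1% (SO1-only) and 5.93% (TGFb-only) within 2500 bp, 12.7% (SO1-only) and 5.96% (TGFb-only) with none within 25 kb, and 12.5% (SO1-only) and 6.46% (TGFb-only) with none within 50 kb. LCC H3K4me1 was 22.9% (SO1-only) and 64.8% (TGFb-only) within 500 bp, 27.5% (SO1-only) and 82.6% (TGFb-only) within 2500 bp, 20.2% (SO1-only) and 77.5% (TGFb-only) with none within 25 kb, 13.3% (SO1-only) and 77.8% (TGFb-only) with none within 50 kb, and 33.9% (SO1-only) and 79.3% (TGFb-only) at equal lengths. H2030 H3K4me1 was 18.4% (SO1-only) and 17.2% (TGFb-only) within 500 bp, 26.0% (SO1-only) and 25.6% (TGFb-only) within 2500 bp, 19.9% (SO1-only) and 22.4% (TGFb-only) with none within 50 kb, and 26.4% (SO1-only) and 22.2% (TGFb-only) at equal lengths.

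With at least 25 summits required, 2 SO1-rich and 12 TGFb-rich blocks were left. Runs numbered 48 in SO1 and 63 in TGFb with scores of at least 10. The cause of these changes was not tested. In all, 24 of 74 alternative values stayed within these limits. No paired analysis was possible because each H3K4me1 condition has 1 library, and no replicate could be left out. The motif counts in windows of another length were not run. Unknown depth limits every statement that a summit is missing.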

Other observations

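On a larger scale, the number of H3K4me1 summits per 5 Mb window, in windows with at least 50 TGFb summits, had a median ratio of 0.889 SO1 summits per TGFb summit over 540 windows. The ratio lay below 0.5 in 3 windows and above 1.5 in 1, while the ratio of LCC to TGFb passed neither bound in any window. The minimum was set on TGFb summits alone, so windows rich in SO1 and poor in TGFb were left out. The counts at the lower and upper bound thus cannot be compared. The lowest was chr13:90000001-95000000 with 28 SO1 and 80 TGFb summits (LCC 80), followed by chr15:35000001-40000000 with 123 and 279 (LCC 248). Among the windows kept, the highest was chr7:85000001-90000000 with 122 SO1 and 75 TGFb summits (LCC 77). At chr19:50000001-55000000 SO1 had 350 and TGFb 253 (LCC 260).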
